A study of Mus musculus with 3 samples.

Results

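Binding of LMX1B, the LIM homeodomain transcription factor that patterns the dorsal side of the limb, was described around 10 genes of axon guidance and their neighbourhood: Sema3a, Sema3c, Sema3d, Slit2, Slit3, Nrp1, Nrp2, Robo1, Robo2 and Pard3b. Pard3b is not a guidance gene. It was included because it lies next to Nrp2 and holds some of the highest-scoring intervals of the study. The genes were chosen by known function together with the intervals and summit scores that both ChIPs list at them. ChIP-seq (sequencing of DNA recovered by chromatin immunoprecipitation) gave lists of enriched stretches, called intervals here. An interval was counted for a gene when its midpoint lay in that gene's domain. A domain is the RefSeq gene body plus the flank on each side up to the neighbouring protein-coding gene body, by at most 1 Mb. Domains of neighbouring genes overlap between the genes, and such intervals were counted once in totals. In all, 67 of 4501 intervals of the validation ChIP and 16 of 1287 intervals of the first ChIP lay in these 10 domains, which together cover 12.1 Mb.

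Both ChIP samples came from pooled fore- and hindlimb buds of C57BL/6 mouse embryos at day 12.5 of gestation, and both used the polyclonal antibody BMO8 against LMX1B. The validation ChIP is the sample whose title calls it a validation of that antibody, and its track name gives no genotype. For the first ChIP the track name includes WT, for wild type. The input DNA, labelled as pooled wild-type and mutant chromatin, has no interval list and was not analysed here. Limb buds hold dorsal and ventral mesenchyme, ectoderm, vessels and ingrowing nerve, and interval lists do not show which cells carried a bound site, nor could the tissue label be checked by expression markers. The labels leave open whether the ChIP samples share a chromatin preparation. Each group is 1 sample, so no spread between replicates exists and no test between the ChIPs was made. The 10 genes were chosen with results of these lists in view, so their counts and scores are descriptions.

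Secreted semaphorins are guidance cues that bind neuropilins, which signal together with plexins. Slit proteins are secreted ligands of Robo receptors. Both systems steer growing axons, mostly by repulsion, and both also act in blood vessels and migrating cells. Semaphorins and neuropilins guide the motor and sensory axons that enter the limb. LMX1B is made in the dorsal limb mesenchyme, the tissue through which dorsal nerves grow.

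Across the 10 genes, 9 had at least 1 validation interval in their domain, and 15.1% of all 21779 protein-coding genes did. A first-ChIP interval lay in 7 of the 10 domains, against 6.04% of all protein-coding genes. An interval called shared, meaning that at least 1 bp of it was covered in the other list too, also lay in 7 of the 10, against 3.41% of all genes. The 10 domains are long, with a median of 1190 kb against 67.3 kb for all protein-coding genes. Among the 3276 genes with a domain at least as long as the shortest of the 10 (300.8 kb), 46.6% had a validation interval, 20.8% a first-ChIP interval and 15.1% a shared one. Those 3276 genes had a median domain of 596 kb, shorter than that of the 10. Since the 10 genes were picked with these lists known, nothing is read from the difference in these shares. The genes with a shared interval were Sema3d, Slit2, Slit3, Nrp2, Robo1, Robo2 and Pard3b. Sema3a and Nrp1 had validation intervals only, and Sema3c had none of either list.

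**Figure D1:**
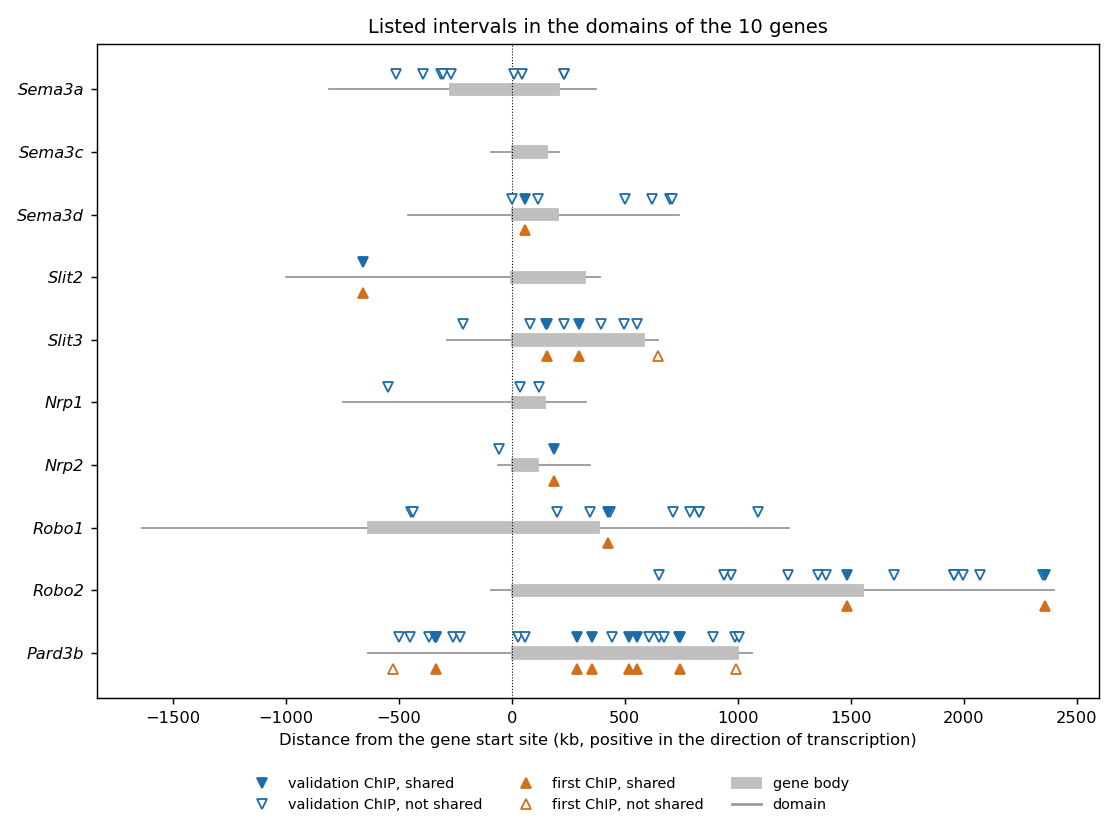
Positions of all listed intervals in the 10 domains, as distance from each gene's start site in kb. For Robo2, which has 3 start sites, the one at 75447293 is used here, whereas the text gives distances to the nearest. Triangles above a line are validation intervals and those below it first-ChIP intervals, filled where shared. Sema3c has no interval, Sema3a and Nrp1 have open validation triangles only, and Pard3b has the most of both lists, 23 and 8.

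The ligand genes were taken first. Sema3d, Sema3a and Sema3c, which encode secreted semaphorins, all lie on chromosome 5. Sema3d (12383161 to 12588953, plus strand) had 7 validation intervals and 1 first-ChIP interval in its domain. Its shared validation interval, at 12441318 to 12442922, had a score of 18, a value reached by 11.0% of that list. The first-ChIP interval that it overlapped, at 12441718 to 12442055, had a score of 22, reached by 37.5% of its own list. This pair lay inside the gene, 59.0 kb (validation) and 58.7 kb (first ChIP) downstream of the start site. The validation interval was 1605 bp wide, and only 0.422% of that list was at least as wide.

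A second validation interval in the Sema3d body, at 12498486 to 12499017, had a score of 13 and no partner. A further one at 12381420 to 12381923, with a score of 9, lay 1.495 kb upstream of the Sema3d start site. No other interval of either list came as close to a start site that the RefSeq promoter table gives for any of the 10 genes. Its score was low, since 92.2% of the validation list had at least as high a score, and it was not shared. Of the start sites that this table gives for the 10 genes, that of Sema3d was the nearest to an interval. For this reason the Sema3d promoter of RefSeq (GRCm38.p6, plus strand, chr5:12382916-12383215) is shown, with the only match to CACCTG, an E-box hexamer, in capitals.
Sema3d promoter: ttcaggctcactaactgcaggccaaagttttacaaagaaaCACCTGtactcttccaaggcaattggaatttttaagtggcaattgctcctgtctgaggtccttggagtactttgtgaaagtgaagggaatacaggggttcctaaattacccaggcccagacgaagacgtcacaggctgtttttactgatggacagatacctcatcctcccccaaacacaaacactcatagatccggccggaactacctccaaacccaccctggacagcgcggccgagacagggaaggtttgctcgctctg
The stretch has no TAATTA, the core of sites bound by LIM homeodomain proteins, on either strand.

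Between the gene bodies of Sema3d and Sema3a lie 536 kb without another protein-coding gene. This stretch held 4 validation intervals, at 12885188 to 12885899 (score 14), 13005149 to 13005827 (score 10), 13084773 to 13085243 (score 11) and 13091664 to 13092297 (score 11). None was shared, and no first-ChIP interval lay there. They fall in the domains of both genes and cannot be assigned to either from position.

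Sema3a (13124822 to 13603485, plus strand) encodes the best known of the axon-repelling semaphorins. It had 9 validation intervals in its domain, these 4 included, with scores of 10 to 15, and no first-ChIP interval. An interval at 13124913 to 13125577 (score 12) sat at the 5′ end of the annotated gene body, with its midpoint 0.42 kb inside. That end is 272 kb from the only Sema3a start site of the promoter table, so the interval lay far upstream of that start. Whether transcription also starts at the 5′ end of the body was not tested. The interval nearest to the start site, at 13405214 to 13405911, lay 8.78 kb downstream of it and had the highest score of the gene, 15. The next, at 13439372 to 13439928 (score 10), lay 42.9 kb downstream. Beyond the gene, 2 neighbouring validation intervals at 13628922 to 13629303 and 13629373 to 13630011 had scores of 13 and 12, with midpoints 0.58 kb apart.

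Sema3c (17574816 to 17730268), whose product is known from heart outflow tract and vessel development, had an empty domain of 300.8 kb, the shortest of the 10, with respect to both lists. The closest validation interval, at 16778549 to 16779108 with a score of 9, lay 702 kb outside the border, and the closest first-ChIP interval lay 1631 kb outside. An empty domain says only that neither list holds an interval there.

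The Slit genes differed from each other in where their intervals lay. Slit3 on chromosome 11 (35121456 to 35708507, plus strand) had 9 validation and 3 first-ChIP intervals, with 8 and 2 of them in the gene body. Slit2 on chromosome 5 (47981291 to 48307735, plus strand) had 1 of each list and none in its gene body. Both encode secreted Robo ligands.

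In Slit3, a shared pair at 35418053 to 35418728 (validation, score 24) and 35418253 to 35418571 (first ChIP, score 18) lay 297 kb into the gene. The other shared pair, at 35276088 to 35276744 (validation, score 10) and 35276155 to 35276572 (first ChIP, score 22), lay 155 kb into the gene. The scores therefore stood in opposite order in the lists: the pair that was higher in the validation ChIP was lower in the first. A validation interval at 35351321 to 35351852 reached the same score of 24, which 3.78% of that list attains, without overlapping a first-ChIP interval. The other validation intervals in the body lay at 35203582, 35273008, 35517251, 35619148 and 35674177, with scores of 13, 11, 8, 13 and 14. Upstream of the gene, 1 more lay at 34904356 to 34904876, with a score of 10.

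The third first-ChIP interval of the Slit3 domain, at 35768650 to 35769090 (score 19), was not shared. It lay 0.625 kb from the start site of Pank3, the neighbouring gene, and 0.624 kb inside the border of the domain. By position it belongs to the Pank3 end of the domain rather than to Slit3, which ends 60.4 kb away.

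In Slit2, the only pair lay in the gene-poor stretch towards Lcorl, 660 kb upstream of the start site. The validation interval at 47322412 to 47323352 had a score of 22, attained by 5.22% of its list, and the first-ChIP interval at 47322762 to 47323041 had 19, attained by 64.6% of its own. No other interval lay in the 1391 kb domain.

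Slit2 and Slit3 also host a microRNA each, Mir218-1 (chr5:48223942-48224051) and Mir218-2 (chr11:35616816-35616925), known for repressing Robo genes. Both yield 1 identical 5p sequence, while the 3p sequences differ. The mature RefSeq sequences are shown 5′ to 3′, with the seed (bases 2 to 8) in capitals, because the hosts differ in intervals at these loci.
mmu-miR-218-5p: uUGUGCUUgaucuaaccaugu
mmu-miR-218-1-3p: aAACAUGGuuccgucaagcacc
mmu-miR-218-2-3p: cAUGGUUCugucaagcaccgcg
The validation interval of Slit3 at 35619148 to 35619874 began 2.22 kb beyond the end of the Mir218-2 hairpin. Its score of 13 was attained by 34.3% of the list and it was not shared. Within the Slit2 domain, the nearest interval of either list was 901 kb from Mir218-1. An unshared validation interval at 48411434 to 48412043 (score 10), 39.3 kb outside that domain, lay nearer to this hairpin. This comparison of microRNA positions was chosen after the intervals had been seen.

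The receptor genes followed. Nrp1 on chromosome 8 (128358591 to 128505476) encodes the neuropilin through which SEMA3A acts, which also binds vascular endothelial growth factor. It had 3 validation intervals in its domain and no first-ChIP interval. In the gene body they lay at 128396855 to 128397943 (score 10) and 128477582 to 128478177 (score 13), 38.3 and 119 kb downstream of the start site. The highest, at 127809548 to 127810133 with a score of 19, lay 549 kb upstream in the stretch between Pard3 and Nrp1, 4.11 kb from the start site of the gene Gm32590. This interval was nearer to Pard3, 198 kb from the body of that gene.

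Nrp2 on chromosome 1 (62703317 to 62818692) encodes the other neuropilin. It had 2 validation intervals and 1 first-ChIP interval, all outside the gene body. The shared pair lay 69.4 kb beyond the end of the gene, towards Ino80d. Its validation interval, at 62887473 to 62888712, was wide (1240 bp) but had a score of 12, which 44.1% of the list attains. Its first-ChIP interval, at 62887622 to 62888501, was 880 bp wide and had a score of 23, which 30.5% of that list attains. Only 1.82% of validation and 1.86% of first-ChIP intervals were at least as wide. The other validation interval, at 62644610 to 62645251 (score 11), lay between Pard3b and Nrp2, 58.4 kb upstream of Nrp2 and 2.65 kb beyond the end of Pard3b.

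Robo1 and Robo2, which encode Slit receptors, are neighbours on chromosome 16, and 844 kb separate their bodies. Together their domains held 18 validation intervals and 2 first-ChIP intervals, and both first-ChIP intervals were shared. Robo1 (72027518 to 73047491, plus strand) had 11 validation intervals and 1 first-ChIP interval. Robo2 (73891976 to 75447443, minus strand) had 14 and 2. Of these, 7 validation intervals and 1 first-ChIP interval lay in the stretch between the genes and count for both.

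Robo1 and Robo2 are transcribed towards each other, so the stretch between them is downstream of both. The shared pair there, at 73087452 to 73088246 (validation, score 18) and 73087689 to 73088195 (first ChIP, score 22), lay 40.4 kb (validation) and 40.5 kb (first ChIP) beyond the end of Robo1, and 804 kb beyond Robo2. It fell in the long non-coding RNA gene 4930500H12Rik, 15.5 kb (validation) and 15.6 kb (first ChIP) from its start site. The highest validation score of the stretch, 23, belonged to the unshared interval at 73449608 to 73450646. It was 1039 bp wide and lay 31.0 kb from the start of Gm41472, a non-coding gene whose body held 2 more validation intervals, at 73489285 (score 14) and 73490888 (score 10).

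In the Robo1 body, 4 validation intervals had scores of 10 to 12 and none was shared. Those at 72218005 to 72218590 and 72223945 to 72224441, both with a score of 10, lay in the annotated body but 445 and 439 kb upstream of the start site in the promoter table. In the Robo2 body there were 7 validation intervals with scores of 9 to 18. The shared one, at 73964271 to 73965011 with a score of 17, overlapped the first-ChIP interval at 73964468 to 73964742 with a score of 19. It lay near the 3′ end of Robo2, 447 kb downstream of the nearest of its 3 start sites. The highest of the body, at 74795568 to 74796791 with a score of 18, was 1224 bp wide and had no partner.

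Pard3b on chromosome 1 (61638667 to 62642284, plus strand) encodes a PDZ-domain protein of the partitioning-defective family, which organizes cell polarity and junctions. Its domain of 1703 kb held 23 validation and 8 first-ChIP intervals, 6 of each shared. That is 34.3% of the validation intervals of the 10 domains and 8 of their 16 first-ChIP intervals. Only 4 of the 21779 protein-coding genes, Pard3b included, reached that number of validation intervals, and 8 reached that number of first-ChIP intervals.

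Within the gene body lay 14 validation intervals, with a median score of 10.5, and 5 were shared. The interval with the highest score, 50, at 61927902 to 61929142, lay 290 kb downstream of the start site. Its score had rank 3 in the validation list, tied with others, and 0.111% of that list attains it. The first-ChIP interval inside it, at 61928079 to 61928927, had a score of 36, which 4.27% of that list attains. In the first ChIP the highest score of the gene was instead 38, at 62155869 to 62156478, 517 kb downstream of the start. The validation interval there, at 62155709 to 62156660, had a score of 23, second in the gene.

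The other shared pairs of the body had lower scores. They lay at 61993574 to 61994044 (validation, score 9) with 61993680 to 61993987 (first ChIP, score 16), at 62190620 to 62191289 (score 14) with 62190740 to 62191222 (score 22), and at 62382994 to 62383632 (score 14) with 62383145 to 62383471 (score 18). The shared intervals of the body were spread over 455 kb of the gene, and no interval lay within 25 kb of its start site. Neighbouring validation intervals in the body were a median of 65.3 kb apart, with gaps of 2.76 to 230 kb.

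Upstream of Pard3b, towards Icos, 8 validation intervals had scores of 9 to 21 and a median of 13. The highest, at 61406668 to 61407653, was not shared. The shared pair, at 61302442 to 61303206 (validation, score 12) and 61302629 to 61302980 (first ChIP, score 15), lay 336 kb upstream of the start site. It was one of 3 validation intervals within 5 kb, the others being at 61297943 (score 15) and 61300963 (score 11). Unshared first-ChIP intervals lay at 61112083 to 61112522 (score 20) and, in the gene body, at 62631762 to 62632079 (score 21).

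**Figure D2:**
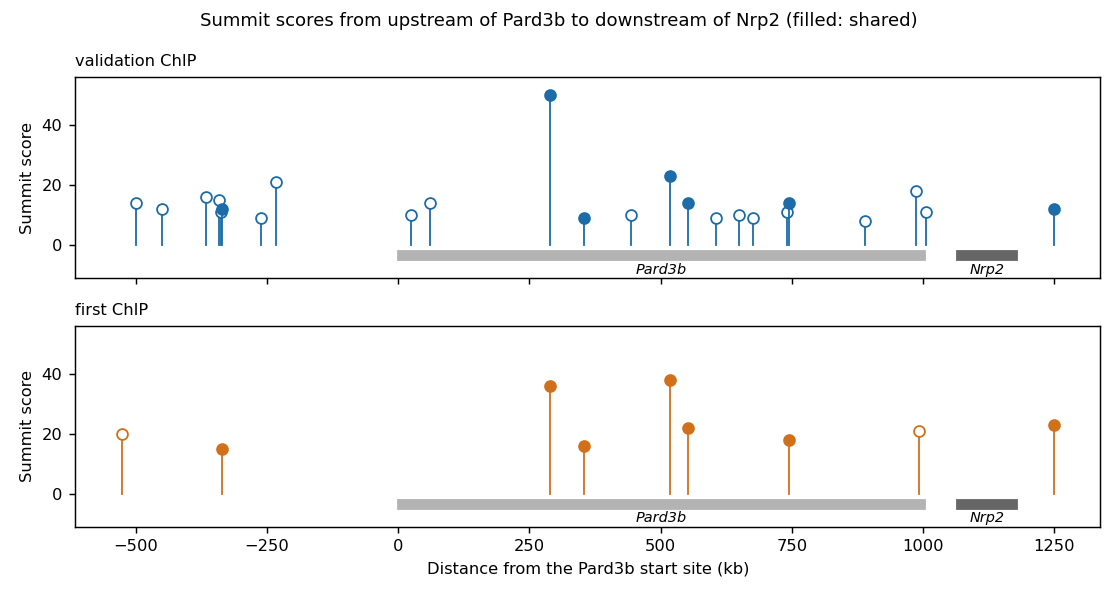
Summit scores (y axis, no stated unit) against distance from the Pard3b start site in kb, for the validation ChIP above and the first ChIP below; filled points are shared and grey bars are gene bodies. The validation score of 50 stands apart at 290 kb, where the first ChIP has 36, while the first ChIP is highest, at 38, near 517 kb; Nrp2 itself carries no point.

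The neuropilin genes each follow a partitioning-defective gene on their chromosome: Nrp2 follows Pard3b and Nrp1 follows Pard3. Domains of Pard3b and Nrp2 held 24 validation and 9 first-ChIP intervals in 2.05 Mb. Domains of Pard3 and Nrp1 held 8 validation intervals and 0 first-ChIP intervals in 1.71 Mb. Validation scores ran from 8 to 50 with a median of 12 at Pard3b and Nrp2, and from 9 to 19 with a median of 12 at Pard3 and Nrp1. The medians were equal, and the loci differed in number, in the highest scores and in shared intervals, 7 first-ChIP intervals against 0. Pard3b was included for its strong intervals, so this difference has no test.

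Per Mb of domain, the 10 genes together held 5.53 validation intervals and 1.32 first-ChIP intervals. All protein-coding domains held 1.70 and 0.485. The other 9 genes, without Pard3b, held 4.30 and 0.765. Pard3b had 13.5 validation intervals per Mb, Slit3 9.62 and Sema3a 7.64, whereas Slit2 had 0.719 and Sema3c 0. In the first ChIP the order began with Pard3b at 4.70, Slit3 at 3.21 and Nrp2 at 2.47. The Slit3 value includes the interval at the Pank3 end of its domain. The Nrp2 value rests on 1 interval in a domain of 406 kb. Sema3a thus followed Pard3b and Slit3 in the validation ChIP and stood at 0 in the first.

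**Figure D3:**
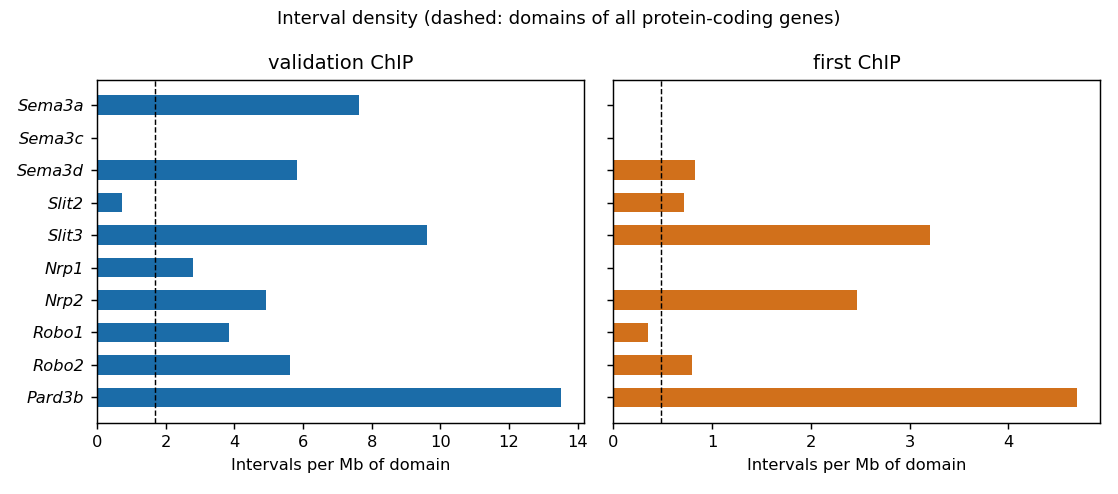
Intervals per Mb of domain for each gene, validation ChIP on the left and first ChIP on the right, with the value over the domains of all protein-coding genes as a dashed line (1.70 and 0.485). Pard3b has the longest bar in both, and Slit2 and Sema3c lie under the line in the validation ChIP.

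Of the 67 validation intervals, 13 were shared (19.4%, 95% Wilson interval 11.7 to 30.4), against 15.6% of the whole list. Of the 16 first-ChIP intervals, 13 were shared (81.2%, 95% Wilson interval 57.0 to 93.4), against 54.9% of that whole list. Wilson intervals here cover counting error only, and since the genes were chosen with these intervals known they are no test against the lists. Without Pard3b, 7 of 45 validation intervals (15.6%, 7.75 to 28.8) and 7 of 8 first-ChIP intervals (87.5%, 52.9 to 97.8) were shared. All 13 shared first-ChIP intervals, and none of the 3 unshared ones, stood in a further list deposited by the authors, named Active Regions, which holds 735 regions. That list follows sharing throughout: it holds all 707 shared first-ChIP intervals of the genome and 28 of the unshared ones (4.83%).

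Shared validation intervals had a median score of 17, with a range of 9 to 50, against a median of 11 and a range of 8 to 24 for the 54 unshared ones. Over the whole list the medians were 16 and 11. Shared first-ChIP intervals had a median of 22, with a range of 15 to 38, and the 3 unshared ones had 19, 20 and 21. The ranges overlapped in both lists: validation scores of 24, 23 and 21 occurred without a partner, and a score of 9 with one. Of the validation intervals in the 10 domains, 67.2% were at or above the median score of the list, 11, as were 57.6% of the whole list. In the first ChIP 56.2% were at or above its median of 20, as were 55.3% of the list.

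**Figure D4:**
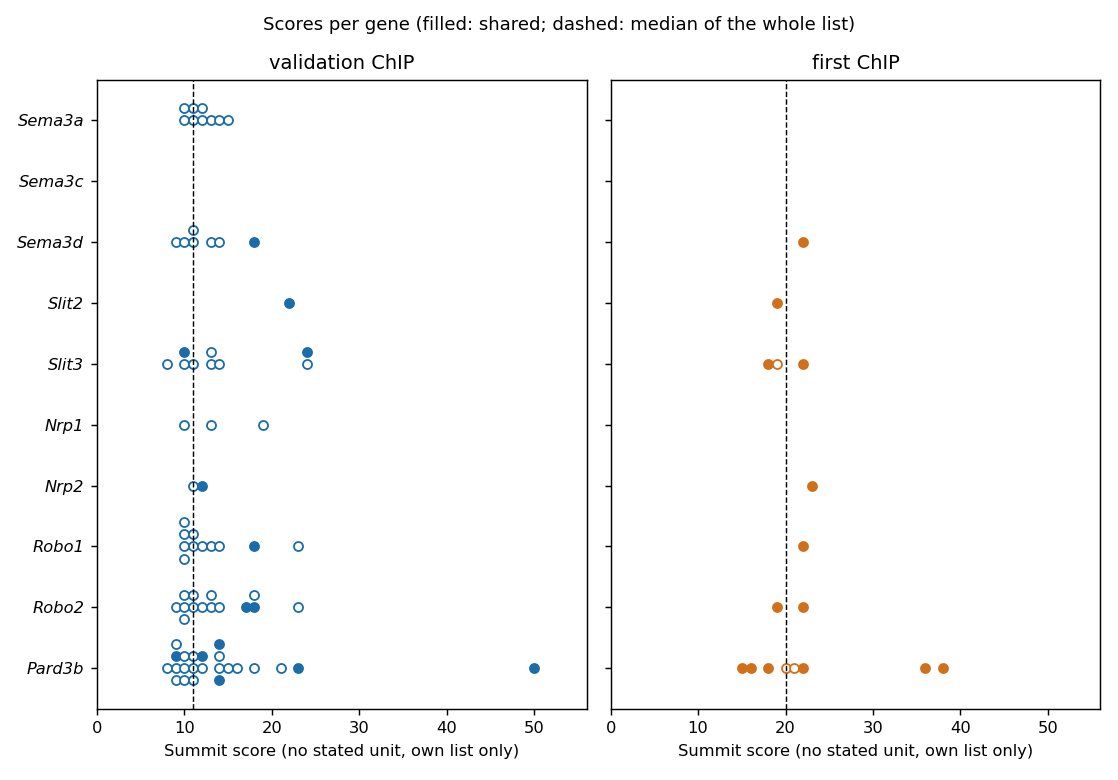
Summit scores of every interval by gene, validation ChIP on the left and first ChIP on the right; filled points are shared and dashed lines are the list medians, 11 and 20. Most validation points lie between 8 and 24, with the Pard3b point at 50 alone to the right, and the first ChIP reaches 36 and 38 at Pard3b only.

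In each of the 13 pairs the first-ChIP interval lay wholly inside the validation interval, as in 68.8% of all 709 pairs. The median distance between summits was 48 bp in these pairs, and 10 of the 13 were within 100 bp. Over all pairs the median was 64 bp and 73.8% were within 100 bp. The exceptions were Slit2 at 128 bp, the highest Pard3b pair at 224 bp and Sema3d at 688 bp. Of all pairs, 12 had summits at least as far apart as the Sema3d pair. There the first-ChIP interval covered 21.1% of the wide validation interval and lay towards its start-site end.

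**Figure D5:**
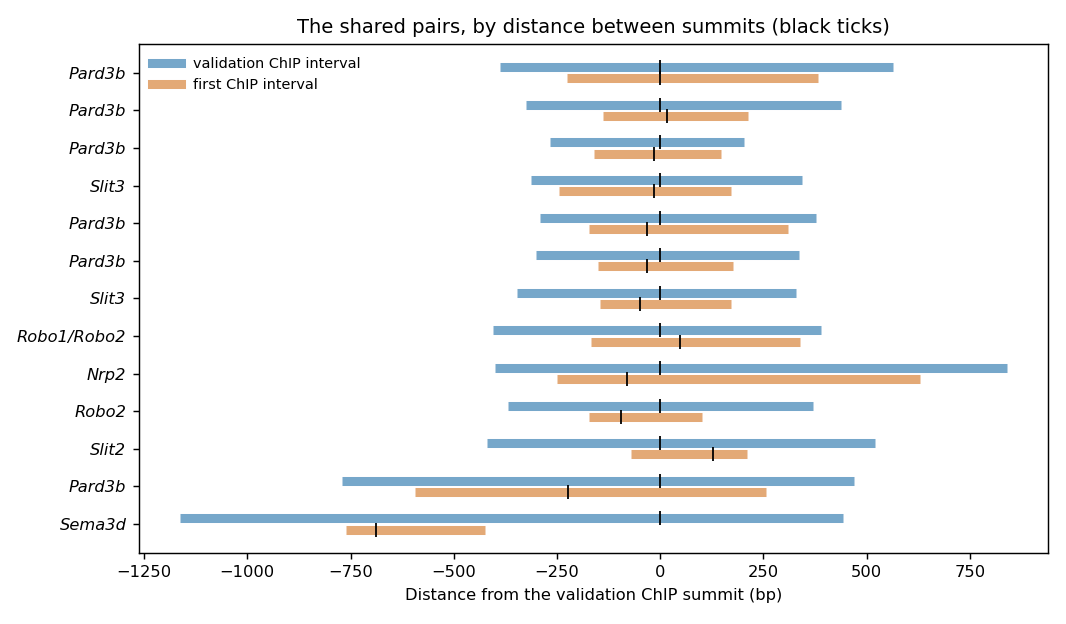
The 13 shared pairs drawn to scale in bp from the validation summit, the validation interval above the first-ChIP interval in each row, with black ticks at the summits. Every first-ChIP bar lies inside its validation bar, and the ticks are 0 to 96 bp apart except in Slit2, 1 Pard3b pair and Sema3d, at 688 bp.

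Most intervals at these genes lay far from the start sites of the promoter table. That table gives 1 start site for each of the 10 genes except Robo2, and starts missing from it are not counted. The annotated bodies of Sema3a and Robo1 begin 272 and 636 kb before their start site in the table. Of the 67 validation intervals, 1 (1.49%) had its midpoint within 1 kb of a start site of any gene in the promoter table, against 16.9% of the whole list. It lay 0.767 kb from that of the non-coding gene 9530026F06Rik, upstream of Pard3b. In the first ChIP 1 of 16 (6.25%) did, the one at Pank3, against 26.0% of the whole list. The median distance to a start site was 58.4 kb in the validation ChIP, against 29.6 kb over its list, and 61.0 kb in the first ChIP, against 21.3 kb. The domains are long and hold few genes, and how much of this follows from their length was not tested. In the bodies of the 10 genes lay 40 of the 67 validation and 10 of the 16 first-ChIP intervals. Another of the same list was within 10 kb for 17 validation intervals (25.4%, against 18.9% of the list) and for 0 first-ChIP intervals (8.94% of the list).

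Promoters of these genes, taken as 250 bases before to 50 after a start site, held no interval midpoint. The table gives 12 promoters for the 10 genes, 3 of them for Robo2. Both strands were searched. None of the 12 held TAATTA, which 5.29% of all 32851 promoters hold, nor TTAATTA (3.07%), which contains it, nor TAAT and ATTA with 3 bases between them (0.487%). CACCTG was found in those of Sema3d and Robo1 (20.2% of all promoters) and CAGATG in that of Sema3c (17.2%). A match is a stretch of letters and not a bound site, and no match says only that these letters are not in this window. Sequence under the intervals was not analysed here.

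Other semaphorin, plexin, neuropilin, Slit and Robo genes were counted from a list of 38, of which 9 are described above. A validation interval lay in 12 of the 38 domains, a first-ChIP interval in 9 and a shared one in 7, with a median domain of 171 kb, against 15.1%, 6.04% and 3.41% of all protein-coding genes. Of the 29 that are not among the 10 genes, 4 had a validation interval, 3 a first-ChIP interval and 1 a shared one. Among the 20 semaphorin genes 4 had a validation interval, 2 a first-ChIP interval and 2 a shared one. Of the 11 plexin and neuropilin genes, 4 had a validation, 3 a first-ChIP and 1 a shared interval. The Slit genes had 2 of 3 and the Robo genes 2 of 4 in each of the 3 counts, and Slit1, Robo3 and Robo4 had no interval.

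Outside the 10 genes, only Sema6a on chromosome 18, which encodes a membrane-bound semaphorin, had a shared interval. Its domain held 4 validation and 2 first-ChIP intervals, and 1 of each was shared. The shared pair lay 319 kb from the gene, with scores of 25 in the validation ChIP (47689491 to 47690376) and 33 in the first (47689376 to 47690198). Unshared validation intervals had scores of 8, 9 and 17, and the unshared first-ChIP interval, in the gene body at 47370167 to 47370419, had 15. Sema5a, also membrane-bound, had 6 validation intervals in its body with scores of 9 to 12 and no first-ChIP interval. Plxna4, which encodes a semaphorin receptor, had 4 validation intervals with scores of 10 to 12. Plxna1 had no validation interval and 1 unshared first-ChIP interval (score 20) 0.818 kb from the gene. Plxnc1 had 2 validation intervals and 1 first-ChIP interval, in different places.

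Some intervals fall close to the border of a domain and would be counted otherwise with a slightly different border. Just inside lay the first-ChIP interval near Pank3, 0.624 kb from the border, with a score of 19, and the validation interval between Pard3b and Nrp2, 2.65 kb inside the Nrp2 domain, with a score of 11. Just outside the Sema3d domain, by 0.424 kb, lay the validation interval at the 5′ end of the Sema3a body, with a score of 12. The unshared first-ChIP interval at 62631762, with a score of 21, was 10.4 kb outside the Nrp2 domain and inside that of Pard3b.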

How the data were processed

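ChIP-seq of LMX1B in limb buds of day 12.5 embryos was deposited as 1 interval list per ChIP sample. Per the labels, 2 runs of 48 limb buds each were pooled. The submitters' processing notes name BWA and the build mm10. Which program called the intervals, and at which threshold, is not given in the sources used here. The deposited score at each summit is a whole number with no stated unit, made by the authors, and was ranked only within its own list. Sequencing depth is unknown. Summits mostly stand on a 16 bp grid (94.4% of validation and 96.3% of first-ChIP summits), which limits summit distances.

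The validation file also repeats the first-ChIP tracks, which were not used from it. Coordinates are counted from 1. Gene bodies came from RefSeq (GRCm38.p6, the assembly of mm10), with entries before 3 Mb on autosomes and X left out, which kept 49603 genes. Start sites, strands and promoters came from a RefSeq promoter table, in which all 10 genes matched, and microRNAs from a RefSeq table. Overlap and domain functions were checked on simulated data. Python 3.11.15, pandas 2.3.3 and SciPy 1.17.1 were used.

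The genes, lists and settings were chosen with earlier results of these data known. Named were the 10 genes, all their shared intervals, their 3 highest intervals per list, and listed pathway genes with a shared interval. Other intervals, pathway genes and non-coding genes were named after their values were seen. No test across samples was made, since each group is 1 sample.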

Additional observations from a re-analysis of the deposited data

How the results depend on the processing

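Of 26 counts recomputed under other settings, 24 stayed within 1.5-fold. The 13 shared first-ChIP intervals became 8 when the overlap had to cover 50% of each partner, where Sema3d and Slit2 no longer had one, and 6 when intervals scoring under their list's median were dropped, where Slit2 and Slit3 no longer had one. Both settings compare fewer pairs or intervals by construction. Genes with a shared interval numbered 5 to 7 under all settings, and Nrp2, Pard3b, Robo1 and Robo2 were among them in each. Under the 50% overlap and the median score settings, Robo1 and Robo2 were counted through the same single pair. That pair has its first-ChIP interval at 73087689, in the stretch between the genes, and the pair in the Robo2 body was lost. Validation intervals numbered 49 to 67 and first-ChIP intervals 13 to 16. Slit2 had none with a cap of 500 kb or a window of 100 kb. No paired analysis was possible because each group holds 1 sample. Without read counts, sites under the authors' calling limit cannot be seen.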

Other observations

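Other genes linked to semaphorin and Slit signalling, intracellular mediators and some cell-surface proteins such as Dcc, L1cam and the proteoglycan Sdc1, were counted from a list of 23, none of them among the 10 genes. A validation interval lay in 7 of the 23 domains, a first-ChIP interval in 2 and a shared one in 0, against 15.1%, 6.04% and 3.41% of all protein-coding genes. Their median domain was 140 kb. Mical2, whose product acts on actin, had 3 validation intervals with scores up to 19 and 1 first-ChIP interval with a score of 21, none of them shared. Srgap1 and Srgap2, whose products bind Robo receptors, had 1 validation interval each, with scores of 11 and 9. Abl1, a kinase of the Robo pathway, had 1 first-ChIP interval in its body, with a score of 16. Dcc, a netrin receptor with a domain of 2722 kb, had 1 validation interval with a score of 12.

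Polarity genes related to Pard3b were counted from a list of 7. Pard3, Pard6b and Pard6g had 6, 1 and 1 validation intervals in their domains and no first-ChIP interval. Pard6a, Prkci and Prkcz had none of either list. The highest score among them, 21, belonged to the validation interval of Pard6b, 68.3 kb from the gene. Pard3b was the only one of the 7 with a first-ChIP interval. Domains of these genes differ in length, from 2.50 kb for Pard6a to 1703 kb for Pard3b, and a longer domain can hold more intervals.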
